A study of Mus musculus with 13 samples.

Results

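Canonical WNT signalling was read here through 10 genes. Of these, 5 are transcriptional targets of the pathway (*Axin2*, *Nkd1*, *Nkd2*, *Lef1* and *Tcf7*). The other 5 encode secreted proteins and are grouped here as secreted WNT modulators (*Sfrp1*, *Sfrp2*, *Frzb*, *Wif1* and *Dkk3*). The 10 genes were chosen by name, and all 10 were among the 36109 genes with a listed transcript. RNA was measured in 13 libraries, 3 of aortic endothelial cells (ECs) from *Hmox2*+/+ mice (EC WT), 3 of ECs from *Hmox2*-/- mice (EC KO), 4 of whole heart from *Hmox2*+/+ mice (heart WT) and 3 of whole heart from *Hmox2*-/- mice (heart KO). Mice of both genotypes were kept in room air, *Hmox2*-/- mice carry a deletion of the heme oxygenase gene *Hmox2*, and the *Hmox2*+/+ mice were their littermates. The sequenced mice were young, and their sex was not given in the sources used here. The comparison asked how the WNT target genes and the genes grouped as secreted modulators differ between the genotypes in each tissue.

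In canonical WNT signalling a secreted WNT protein binds a Frizzled receptor and its LRP co-receptor, which stops the breakdown of beta-catenin, and beta-catenin then enters the nucleus and activates genes together with TCF/LEF factors. AXIN2 is a scaffold of the complex that degrades beta-catenin, and its gene is a widely used readout of the pathway because it is itself induced. NKD1 and NKD2 bind Dishevelled and restrain the signal. LEF1 and TCF7 are TCF/LEF factors, and both are also abundant in T cells. SFRP1, SFRP2 and FRZB carry a Frizzled-like domain and bind WNT in the extracellular space, WIF1 binds WNT through its own domain, and DKK3 is a divergent Dickkopf family protein. In the cardiovascular system WNT signalling is known for its part in heart development and vessel growth.

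To show the DNA in which TCF/LEF factors could be looked for near these genes, the promoters of RefSeq (build GRCm38.p6) were searched. A promoter here is 300 bases on the strand of the gene, 250 before a transcript start and 50 after it. The table held 12 promoters for 8 of the 10 members, and *Sfrp1* and *Dkk3* were not in it. The core of the TCF/LEF motif was searched on both strands as the word CTTTGAA, its variant with a changed last base, CTTTGAT, the variant in which both last bases are exchanged for T and A, CTTTGTA, and finally the word that ends in a pair of T, CTTTGTT. The only match in the 12 promoters was in 1 of the 4 *Lef1* promoters, where CTTTGTA lay on the minus strand 147 bases before the start. Over all 32851 promoters of the table, 5544 (16.88%) held at least 1 of the words. A match is a run of letters and not a binding site, and the members' regulatory DNA outside these promoters was not searched. The 250 bases before the start are printed for the 3 members that changed in ECs and for the *Lef1* promoter with the match, with the matched word in capitals (all on the plus strand).
Axin2, chr11:108920099-108920348: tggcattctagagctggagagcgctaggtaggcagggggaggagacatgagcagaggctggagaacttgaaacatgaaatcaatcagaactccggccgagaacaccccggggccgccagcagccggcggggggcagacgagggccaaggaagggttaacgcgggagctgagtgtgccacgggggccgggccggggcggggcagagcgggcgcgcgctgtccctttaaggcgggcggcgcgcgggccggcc
Sfrp2, chr3:83766071-83766320: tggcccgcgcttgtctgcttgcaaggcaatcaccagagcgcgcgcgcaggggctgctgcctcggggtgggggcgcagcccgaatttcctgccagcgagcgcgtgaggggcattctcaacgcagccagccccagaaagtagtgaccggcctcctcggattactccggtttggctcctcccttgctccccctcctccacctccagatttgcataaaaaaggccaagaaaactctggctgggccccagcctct
Wif1, chr10:121033754-121034003: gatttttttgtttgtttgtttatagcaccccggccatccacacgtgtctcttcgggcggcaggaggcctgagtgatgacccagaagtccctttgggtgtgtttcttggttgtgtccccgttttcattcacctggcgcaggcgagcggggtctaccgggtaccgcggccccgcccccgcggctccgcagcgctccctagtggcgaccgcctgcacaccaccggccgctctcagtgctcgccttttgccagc
Lef1, chr3:131156044-131156293: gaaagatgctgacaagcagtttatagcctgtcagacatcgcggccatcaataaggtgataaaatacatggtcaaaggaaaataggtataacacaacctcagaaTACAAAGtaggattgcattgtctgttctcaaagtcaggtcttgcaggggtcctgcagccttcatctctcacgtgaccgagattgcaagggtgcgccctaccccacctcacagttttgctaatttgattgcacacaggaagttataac
The *Axin2*, *Sfrp2* and *Wif1* promoters were rich in G and C over the whole 300 bases (70%, 66% and 63%) and held 31, 22 and 25 CG pairs, while the *Lef1* promoter with the word was 43.67% G and C and held 5 CG pairs.

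Levels are given as CPM, the share of a gene in the TMM-normalized total of its library, and differences between genotypes as log2 fold changes of *Hmox2*-/- compared to *Hmox2*+/+ with their standard error (SE) from edgeR's quasi-likelihood test. A gene passed when its p, adjusted by Benjamini-Hochberg, was 0.05 or lower, and was a differentially expressed gene (DEG) when the level also differed 2-fold or more (1 on the log2 scale). Total estimated counts were 26067147 to 31138642 in the EC libraries, 7268626 in heart WT 1 and 29815090 to 31619776 in the other 6 heart libraries. *Hmox2* itself was 63.9 to 76.2 CPM in EC WT and 12.6 to 14.7 CPM in EC KO, and 37.3 to 42.5 CPM in heart WT and 7.53 to 8.90 CPM in heart KO, so every library was in the order of its label. EC KO 2 and EC KO 3 stood apart in the Y-linked gene *Ddx3y*, at 1.03 and 0.920 CPM compared to 61.7 to 86.4 CPM in the other 4 EC libraries. The EC values of the members are therefore also given without EC KO 2 and EC KO 3. In heart *Ddx3y* was 61.6 to 86.5 CPM in WT and 37.0 to 50.9 CPM in KO, without overlap. The 8 endothelial markers were found in all EC libraries (summed level 2972 to 4343 CPM in EC WT and 5204 to 6404 CPM in EC KO). Markers of other cells were also found there, including smooth muscle (3226 to 6284 compared to 1046 to 3560 CPM), fibroblasts (3121 to 5588 compared to 6844 to 7526 CPM) and adipocytes (3016 to 4985 compared to 3497 to 4204 CPM). Macrophage markers summed to 369 to 474 CPM in EC WT and 647 to 1040 CPM in EC KO, without overlap, and 4 of 6 passed as higher. In such bulk samples, fewer cells of a type and less RNA per cell cannot be told apart.

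In aortic ECs, 1 of the 5 WNT targets fell, *Axin2*, and none rose. Of the 5 secreted modulators, *Sfrp2* rose and *Wif1* fell. All 3 were DEGs, and *Wif1* could pass the count filter (minimum count 10) through EC WT alone. Among the 15301 genes tested in ECs, 10% passed as higher and 8.06% as lower in *Hmox2*-/- mice, and 5.39% and 3.89% were DEGs in these directions. The median log2 fold change was -1.17 over the 5 targets, 0.48 over the 5 modulators and -0.02 over all genes tested. The difference between the class medians, -1.66, was -0.52 without EC WT 2, the library with the highest *Tcf7*, *Lef1* and *Axin2*.

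*Axin2* (ENSMUSG00000000142, GRCm39 chromosome 11, 108811169 to 108841609, plus strand) had 13.8, 19.2 and 10.1 CPM in the 3 EC WT libraries and 3.01, 3.45 and 4.60 CPM in the 3 EC KO libraries. Every EC KO library was below every EC WT library. The mean was 14.4 ± 4.57 CPM in EC WT and 3.69 ± 0.820 CPM in EC KO (SD, n = 3 each), a 3.90-fold lower level. On the log2 scale the gene fell by 1.96 (SE 0.28, adjusted p = 0.00651). The gene passed under 15 of 16 alternatives, with log2 fold changes of -2.25 to -1.67 and adjusted p of 1.11e-08 to 0.161. The exception was the fit without EC KO 2 and EC KO 3, in which the log2 fold change was -2.25 (adjusted p = 0.161) and 49 genes passed in all. Smooth muscle markers were lower in EC KO as well, with 6 of 6 lower and 3 passing, and their sum was 6284, 3226 and 4982 CPM in EC WT and 3560, 1154 and 1046 CPM in EC KO. Cardiomyocyte markers (8 of 8 lower, 7 passing) summed to 112, 454 and 158 CPM in EC WT and 10.7, 10.2 and 13.3 CPM in EC KO. Some of them, such as *Myh6* and *Myl2*, were scarce in EC KO and could pass the count filter through EC WT alone. Such genes could only be called as lower. Mesothelial markers (4 of 4 lower, 3 passing) summed to 27.5, 129 and 140 CPM in EC WT and 5.49, 4.90 and 6.14 CPM in EC KO. The cardiomyocyte and mesothelial sums, like *Axin2*, were lower in every EC KO library than in any EC WT library, while the smooth muscle sums of the genotypes overlapped. Their part in the *Axin2* difference was not tested.

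*Nkd1* (chromosome 8, 89247890 to 89324577, plus strand), which encodes a Dishevelled-binding antagonist, had 22.6, 13.4 and 15.8 CPM in EC WT and 11.8, 6.36 and 4.78 CPM in EC KO. The groups did not overlap. The log2 fold change was -1.17 (SE 0.35) and missed the threshold (adjusted p = 0.0543). It passed with DESeq2 (adjusted p = 0.00729) and was -0.55 (adjusted p = 0.483) without EC KO 2 and EC KO 3. The level of *Nkd1* went with the sum of the smooth muscle markers. Both were highest in EC WT 1 (22.6 and 6284 CPM) and lowest in EC KO 3 (4.78 and 1046 CPM), and EC KO 1, at 11.8 and 3560 CPM, lay next to EC WT 2, at 13.4 and 3226 CPM. The part of smooth muscle RNA in the *Nkd1* difference was not tested.

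*Nkd2* (chromosome 13, 73966653 to 73995761, minus strand), the paralog of *Nkd1*, was the only target with a log2 fold change above 0 in ECs (0.56, SE 0.32, adjusted p = 0.242). Its levels were 2.40, 2.87 and 4.17 CPM in EC WT and 5.74, 3.26 and 4.97 CPM in EC KO, and the groups overlapped. Without EC KO 2 and EC KO 3 the log2 fold change was 0.87 (adjusted p = 0.411).

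*Tcf7* (chromosome 11, 52143107 to 52174619, minus strand), a T cell transcription factor as well as a WNT target, had 9.16, 113 and 31.5 CPM in EC WT and 10.4, 12.3 and 31.6 CPM in EC KO. The EC WT libraries spanned the whole range of EC KO, and the log2 fold change of -1.50 had an SE of 0.83 (adjusted p = 0.235). It was -0.17 without EC WT 2 and -2.30 (adjusted p = 0.474) without EC KO 2 and EC KO 3. *Lef1* (chromosome 3, 130903919 to 131018005, plus strand) had 2.92, 10.96 and 4.05 CPM in EC WT and 2.37, 4.02 and 5.52 CPM in EC KO. Compared to EC WT it differed by -0.59 on the log2 scale (SE 0.53, adjusted p = 0.456), by 0.18 without EC WT 2 and by -1.33 (adjusted p = 0.496) without EC KO 2 and EC KO 3. The sum of 8 T cell markers, which include the CD3 chains and *Lck*, was 24.7, 243 and 70.3 CPM in EC WT 1, 2 and 3 and 26.7, 38.6 and 85.3 CPM in EC KO 1, 2 and 3. *Tcf7* was highest in the library with the highest T cell sum and lowest in the library with the lowest. For both *Lef1* and *Tcf7*, EC WT 2 was thus the library that set the mean of the group, and their levels in ECs moved with T cell markers within each genotype. The part of T cell RNA was not tested.

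**Figure D1:**
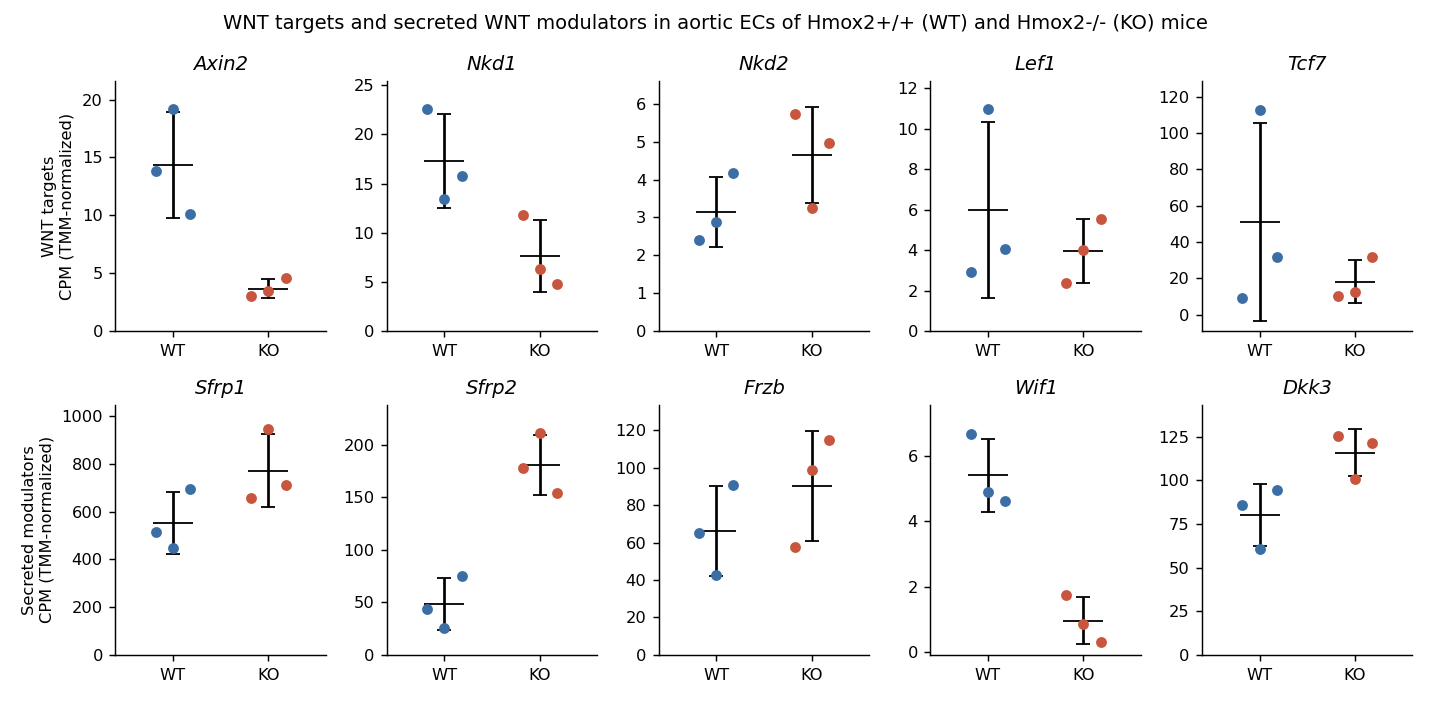
Level of each member in aortic ECs, with 1 panel per gene (top row targets, bottom row secreted modulators), genotype on the x axis and CPM on the y axis. Points are libraries (3 per genotype), the long horizontal bars are means and the error bars are SD. *Axin2*, *Nkd1* and *Wif1* were lower and *Sfrp2* and *Dkk3* higher in every KO library than in any WT library, and a single WT library at 113 CPM raised the *Tcf7* mean.

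Among the modulators, *Sfrp2* (chromosome 3, 83673481 to 83681623, plus strand), a soluble Frizzled-related protein of fibroblasts, had 43.6, 25.9 and 74.6 CPM in EC WT and 177, 211 and 154 CPM in EC KO. Every EC KO library was above every EC WT library, by 3.76-fold in the mean (48.1 ± 24.7 compared to 181 ± 28.7 CPM). On the log2 scale it rose by 1.91 (SE 0.35, adjusted p = 0.0140). It was 1.61 to 2.38 under the alternatives and passed in 15 of 16, the exception being the fit without EC KO 2 and EC KO 3 (1.89, adjusted p = 0.224). Fibroblast markers rose beside it in part, with 7 of 8 higher and 3 passing as higher, and 1, *Tcf21*, passing as lower. Their sum was 4613, 3121 and 5588 CPM in EC WT and 7526, 7171 and 6844 CPM in EC KO. Within EC WT *Sfrp2* had the order of that sum. In EC KO it did not, since *Sfrp2* was highest in EC KO 2 and the sum in EC KO 1. The mean of the sum was 1.62-fold higher in EC KO, compared to 3.76-fold for *Sfrp2*. The part of fibroblast RNA was not tested.

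*Wif1* (chromosome 10, 120869865 to 120936555, plus strand), which encodes a secreted WNT-binding inhibitor, went the other way. It had 6.68, 4.91 and 4.64 CPM in EC WT and 1.74, 0.843 and 0.294 CPM in EC KO, from 147 to 181 estimated counts per library compared to 8 to 49. The groups did not overlap, and the mean level was 5.65-fold lower in EC KO. The log2 difference was -2.49 (SE 0.55, adjusted p = 0.0238). EC KO 3 had fewer estimated counts than the filter's minimum of 10, so *Wif1* could be kept through EC WT alone. A gene kept that way could only be called as lower, so under the filter the direction of this fall carries no information. With no filter the call held. The call was lost without EC WT 1 (-2.31, adjusted p = 0.0627), without EC KO 2 (-2.40, adjusted p = 0.0766), without both libraries low in *Ddx3y* (-1.63, adjusted p = 0.224) and with protein-coding transcripts only (-3.48, adjusted p = 0.0666). Smooth muscle, cardiomyocyte and mesothelial markers, whose sums are given beside *Axin2*, were lower in EC KO as well. The smooth muscle sum was highest in EC WT 1 (6284 CPM), as *Wif1* was, and in EC KO it had the order of *Wif1* (3560, 1154 and 1046 CPM in EC KO 1, 2 and 3). Within EC WT the order differed, since EC WT 2 had a lower sum than EC WT 3 (3226 compared to 4982 CPM) but the higher *Wif1* (4.91 compared to 4.64 CPM). The cardiomyocyte sum was 112 to 454 CPM in EC WT and 10.2 to 13.3 CPM in EC KO, and the mesothelial sum 27.5 to 140 and 4.90 to 6.14 CPM. Their part in the *Wif1* difference was not tested.

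The other 3 modulators did not pass. *Sfrp1* (chromosome 8, 23901263 to 23939648, plus strand) had 513, 448 and 696 CPM in EC WT and 656, 944 and 714 CPM in EC KO, with overlap (log2 fold change 0.48, SE 0.23, adjusted p = 0.175, and 0.25, adjusted p = 0.751, without EC KO 2 and EC KO 3). *Frzb* (chromosome 2, 80242313 to 80278304, minus strand), also called secreted Frizzled-related protein 3, had 65.2, 42.8 and 90.5 CPM in EC WT and 57.7, 98.6 and 115 CPM in EC KO. Its groups overlapped too (0.45, SE 0.32, adjusted p = 0.350), and the log2 fold change was -0.19 (adjusted p = 0.852) without EC KO 2 and EC KO 3. *Dkk3* (chromosome 7, 111712904 to 111758760, minus strand) had 85.8, 60.4 and 94.4 CPM in EC WT and 125, 101 and 122 CPM in EC KO. Its groups did not overlap, and the log2 fold change of 0.53 (SE 0.18, adjusted p = 0.0817) passed with DESeq2 (adjusted p = 0.0402) and was 0.65 (adjusted p = 0.350) without EC KO 2 and EC KO 3. Of the 10 members, 5 (*Axin2*, *Nkd1*, *Sfrp2*, *Wif1* and *Dkk3*) had EC groups that did not overlap, compared to 40.7% of all genes tested.

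In heart tissue no target passed in either direction, and 2 of the 5 secreted modulators, *Sfrp2* and *Dkk3*, rose and were DEGs. Over the 13816 genes tested in heart, 17.2% passed as higher and 16.2% as lower, and 2.66% and 4.05% were DEGs. The median log2 fold change was -0.17 over the 4 targets tested, 0.18 over the 5 modulators and -0.01 over all genes. Heart WT 1 was the shallowest library, with 21 estimated counts of *Axin2* compared to 65 to 110 in the other heart WT libraries.

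*Sfrp2* was scarce in heart WT, at 0.446, 0.381, 0.419 and 0.319 CPM, from 3, 11, 11 and 9 estimated counts. It had 1.53, 3.06 and 2.004 CPM in heart KO, from 52, 101 and 67 counts. The groups did not overlap, and the mean was 5.61-fold higher in heart KO. On the log2 scale the rise was 2.52 (SE 0.34, adjusted p = 5.10e-04), and it passed under 15 of 16 alternatives. With counts derived from length-scaled TPM it was 1.24 (adjusted p = 0.0920), where 93.74% of the *Sfrp2* TPM of 1 heart WT library was given to a 382-base transcript. Fibroblast markers did not separate the heart groups (summed level 566 to 670 CPM in heart WT and 611 to 779 CPM in heart KO), and of the 8, 1 passed as higher and 2 as lower. Endothelial markers were higher in heart KO (475 to 579 CPM in heart WT compared to 632 to 653 CPM, 3 of 8 passing as higher and 0 as lower). Macrophage markers were higher too (116 to 169 compared to 193 to 321 CPM, 3 of 6 passing as higher and 0 as lower). Mesothelial markers were also higher in heart KO (24.0 to 27.4 compared to 40.0 to 67.0 CPM, 3 of 4 passing). Their sum was 48.5, 67.0 and 40.0 CPM in heart KO 1, 2 and 3. Heart KO 2 also had the highest *Sfrp2*, but heart KO 1 had the lowest *Sfrp2* and heart KO 3 the lowest sum. The part of endothelial, macrophage or mesothelial RNA was not tested.

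*Dkk3* had 2.23, 2.94, 1.45 and 1.56 CPM in heart WT and 1.65, 5.48 and 8.59 CPM in heart KO. The log2 fold change was 1.37 (SE 0.45, adjusted p = 0.0377), but heart KO 1 lay among the WT libraries and the difference came from heart KO 2 and heart KO 3. The call held under 8 of 16 alternatives, with adjusted p of 9.52e-04 to 0.152. It was lost with DESeq2 (adjusted p = 0.0712) and without any of heart WT 1, heart WT 3, heart WT 4, heart KO 2 or heart KO 3, the last giving the lowest log2 fold change of 0.81.

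The remaining modulators were near their WT level in heart. *Sfrp1* had 9.22, 10.7, 9.22 and 8.99 CPM in heart WT and 10.3, 10.3 and 10.9 CPM in heart KO (log2 fold change 0.13, SE 0.12, adjusted p = 0.421). *Frzb* had 2.23, 1.80, 2.63 and 2.16 CPM in heart WT and 1.91, 2.39 and 3.17 CPM in heart KO (0.18, SE 0.24, adjusted p = 0.581). *Wif1*, which fell in ECs, had 6.54, 7.48, 4.91 and 7.65 CPM in heart WT and 3.38, 7.41 and 7.69 CPM in heart KO (-0.11, SE 0.27, adjusted p = 0.770). For each of these 3 genes the heart groups overlapped.

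Of the targets in heart, *Axin2* had 3.12, 3.81, 2.48 and 2.58 CPM in heart WT and 2.17, 2.66 and 2.84 CPM in heart KO, with overlap (log2 fold change -0.22, SE 0.21, adjusted p = 0.446). *Nkd1* had 2.38, 1.38, 1.45 and 1.27 CPM in heart WT and 2.12, 1.54 and 2.18 CPM in heart KO (0.36, SE 0.26, adjusted p = 0.314). *Nkd2* had 1.93, 0.519, 0.609 and 1.06 CPM in heart WT and 1.03, 0.484 and 0.957 CPM in heart KO (-0.12, SE 0.46, adjusted p = 0.860). Both paralogs overlapped between the genotypes. *Tcf7*, at 0.892, 0.519, 0.762 and 0.708 CPM in heart WT and 0.353, 0.454 and 0.299 CPM in heart KO, was the only target whose heart groups did not overlap. It missed the threshold (log2 fold change -0.90, SE 0.38, adjusted p = 0.0860) on 6 to 20 estimated counts per library. With *Sfrp2*, 2 members did not overlap in heart, compared to 40.4% of all genes tested. *Lef1* had 1 to 8 estimated counts per heart library and was not tested there. T cell markers summed to 1.20 to 2.06 CPM over the heart libraries, compared to 24.7 to 243 CPM in ECs.

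**Figure D2:**
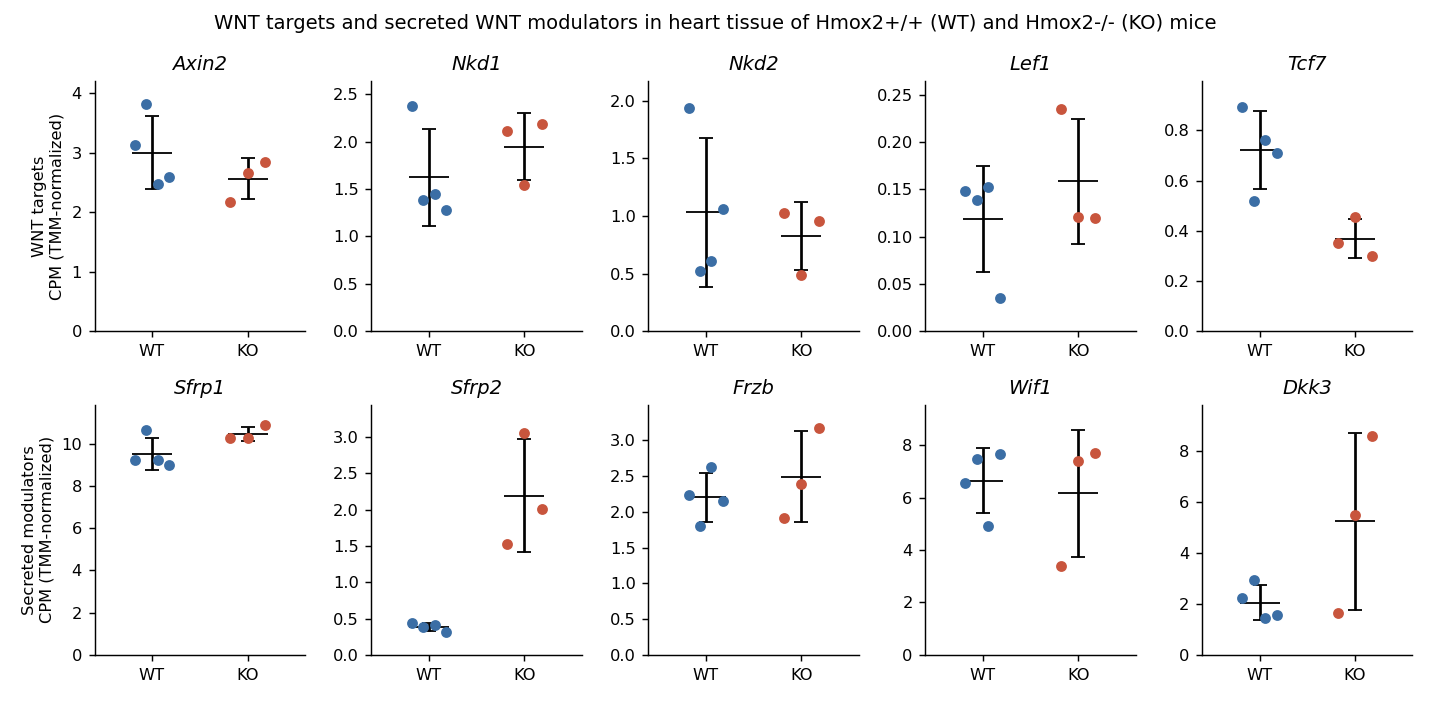
Level of each member in heart tissue, drawn as for ECs (CPM on the y axis, points for the 4 WT and 3 KO libraries, long bars for means, error bars for SD). *Sfrp2* was between 1.53 and 3.06 CPM in all KO libraries and below 0.446 CPM or at it in the WT libraries, and for *Dkk3* 1 of the 3 KO libraries lay within the WT range.

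The genotype difference itself was then compared between the tissues. For *Axin2* the log2 fold change was higher in heart than in ECs by 1.78 (SE 0.36, adjusted p = 0.00305, edgeR's quasi-likelihood test of the tissue by genotype interaction over all 13 libraries), and it passed under all 22 alternatives (1.51 to 2.06). For *Nkd1* the difference was 1.58 (SE 0.45, adjusted p = 0.0183), and for *Wif1* 2.41 (SE 0.59, adjusted p = 0.00815). *Nkd1* missed the threshold with the length and GC offset (adjusted p = 0.0517). Without EC KO 2 and EC KO 3 only *Axin2* passed, and the values were 0.95 for *Nkd1* (adjusted p = 0.177) and 1.56 for *Wif1* (adjusted p = 0.0876). The other 7 members did not pass, among them *Sfrp2* (0.65, SE 0.58, adjusted p = 0.414), which rose in both tissues, and *Dkk3* (0.88, SE 0.56, adjusted p = 0.253). Over all 15938 genes tested, 28.8% passed this test.

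**Figure D3:**
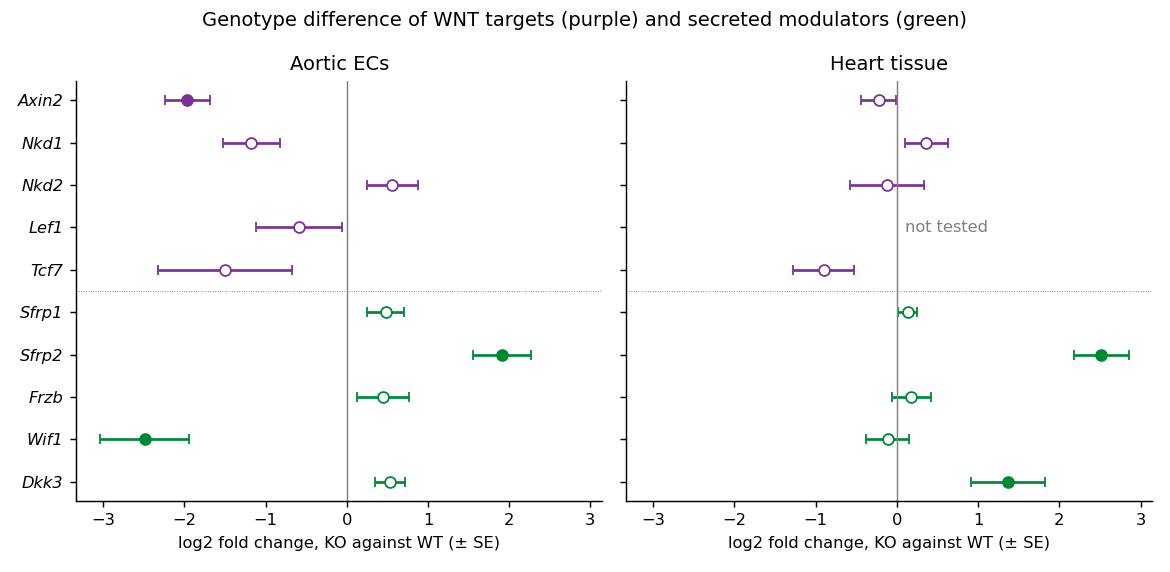
Log2 fold change of *Hmox2*-/- compared to *Hmox2*+/+ on the x axis for each member (y axis), in ECs (left) and heart (right), with error bars for SE. Filled points passed at an adjusted p of at most 0.05. Targets are purple, modulators green, and *Axin2* and *Wif1* lie at -1.96 and -2.49 in ECs and at -0.22 and -0.11 in heart, while *Sfrp2* lies at 1.91 and 2.52.

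Levels of different genes were compared per length, as the deposited TPM (a level corrected for transcript length) summed per gene. In EC WT *Sfrp1* was the highest member (141 TPM, range 107 to 195.5) and did not overlap the next. *Frzb* (37.6 TPM), *Sfrp2* (28.8 TPM), *Tcf7* (27.5 TPM) and *Dkk3* (26.7 TPM) followed, and each of these overlapped its neighbour. *Nkd1* (9.07 TPM) was below *Dkk3* and above *Axin2* (4.65 TPM) without overlap, and *Axin2*, *Wif1* (3.75 TPM), *Lef1* (2.57 TPM) and *Nkd2* formed a last run of neighbours that overlapped. In EC KO *Sfrp2* (104 TPM, range 93.5 to 111) was second to *Sfrp1* (190 TPM, range 174 to 209) and overlapped neither *Sfrp1* above it nor *Dkk3* (38.4 TPM) below it. *Wif1* was the lowest member there. In heart WT the order was different, with *Wif1* (3.25 TPM, range 2.41 to 4.25) overlapping *Sfrp1* (2.08 TPM, range 1.83 to 2.60) at the top, and *Axin2* (0.847 TPM) was below *Sfrp1* without overlap. Summed in CPM within each library, the 5 targets had 50.9 to 159 CPM in EC WT and 29.3 to 51.5 CPM in EC KO, with overlap, and 5.45 to 8.48 CPM in heart WT and 5.26 to 6.40 CPM in heart KO. The 5 modulators had 582 to 961 CPM in EC WT and 1019 to 1355 CPM in EC KO, and 18.6 to 23.3 CPM in heart WT and 18.7 to 32.3 CPM in heart KO. In ECs most of the modulator sum was *Sfrp1* (448 to 944 CPM), which did not pass.

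**Figure D4:**
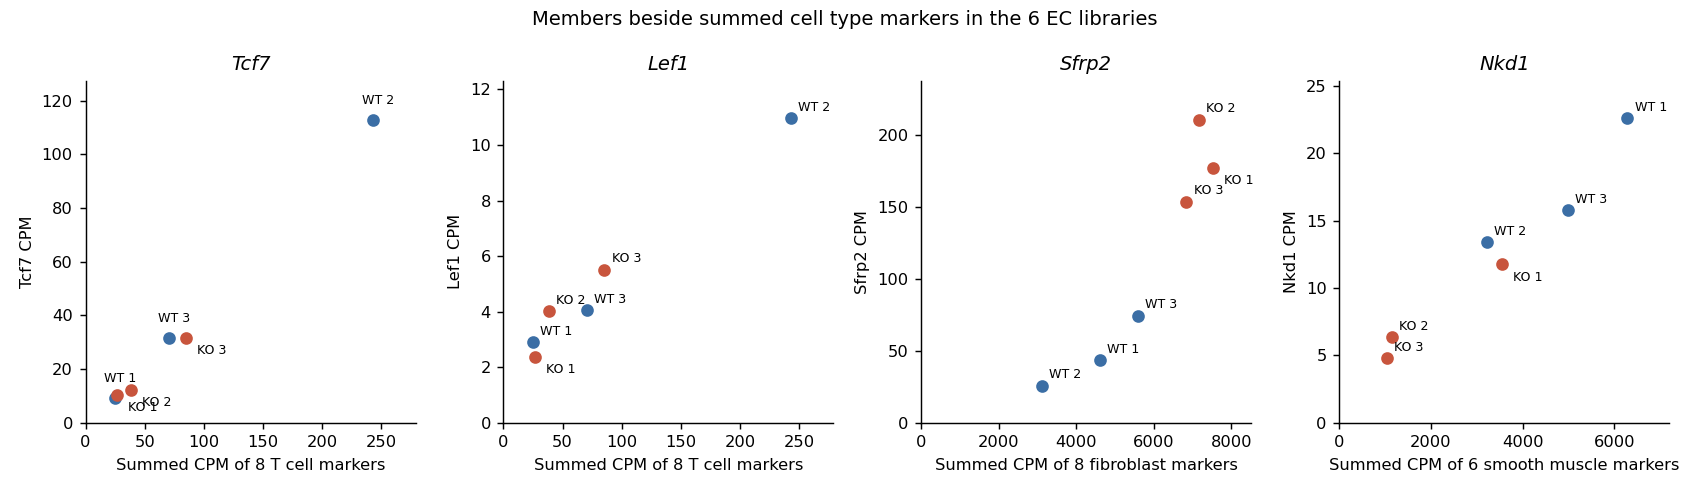
Level of *Tcf7*, *Lef1*, *Sfrp2* and *Nkd1* (CPM, y axes) beside the summed level of T cell, T cell, fibroblast and smooth muscle markers (CPM, x axes) in the 6 EC libraries, blue for WT and red for KO. EC WT 2, with a T cell sum of 243 CPM, has the highest *Tcf7* and *Lef1*, and *Nkd1* is highest and lowest where the smooth muscle sum is. *Sfrp2* has the order of the fibroblast sum within WT but not within KO.

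The transcripts behind these sums differed between tissues for *Wif1*. In EC WT, 74.2% to 79.1% of the *Wif1* TPM was given to *Wif1-202*, a transcript of 1493 bases annotated as a retained intron. A further 14.8% to 25.8% was given to *Wif1-201*, 1 of the coding transcripts (37.8 to 52.8 estimated counts). In EC KO *Wif1-202* took 81.6%, 100% and 100%, and *Wif1-201* had under 1 estimated count in each library. In heart WT and heart KO *Wif1-201* took 47.6% to 89.0% and 74.8% to 100% of the TPM. The lower *Wif1* of EC KO was therefore seen in both the retained-intron transcript (94.2 to 119 compared to 8 to 36.4 estimated counts) and the coding one. *Lef1-201*, a coding transcript of 3482 bases, took 22.5%, 42.4% and 51.2% of the *Lef1* TPM in EC WT and had under 1 estimated count in every EC KO library, where a coding transcript of 2298 bases took 73.1% to 85.0%. For *Axin2* the coding transcript *Axin2-201* was the main one in EC WT (62.1% to 82.8%) and its estimated counts were 276 to 556 in EC WT and 71.3 to 84.8 in EC KO. Kallisto divides reads between transcripts that share sequence by estimation, and no test was made of single transcripts.

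**Figure D5:**
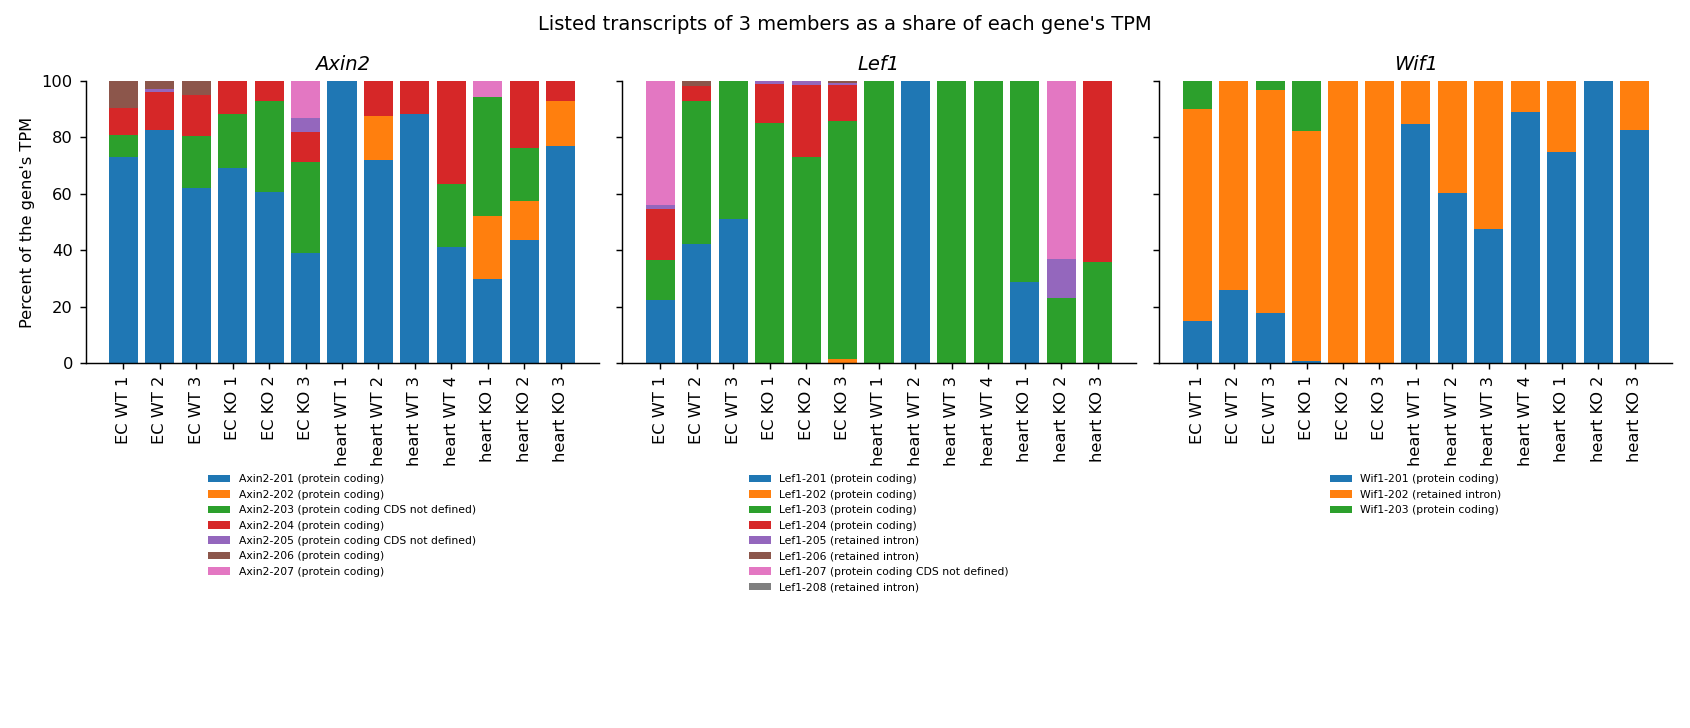
Share of each gene's TPM (percent, y axis) given to each listed transcript of *Axin2*, *Lef1* and *Wif1* in the 13 libraries (x axis), with 1 colour per transcript. The retained-intron transcript *Wif1-202* takes at least 74.2% in every EC library, and *Lef1-201* takes 22.5% to 51.2% in EC WT and close to 0% in EC KO.

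Around the members, 107 other gene names of the pathway were listed, of which *Wisp1* is an older name of *Ccn4* and matched no gene. In ECs 84 of them were tested, 5 passed as higher and 5 as lower, compared to 10% and 8.06% of all genes tested, and their median log2 fold change was -0.02. In heart 75 were tested, 9 passed as higher and 21 as lower, compared to 17.2% and 16.2% of all genes tested, and the median was -0.16. In heart, 7 of 16 genes listed as transducers and 5 of 11 listed as nuclear factors passed as lower, and 1 of each as higher. Over all genes tested in heart 16.2% passed as lower and 17.2% as higher. Both lists hold genes that restrain the signal as well, such as *Axin1* and *Tle1*, so these counts give no direction for WNT signalling. *Ctnnb1*, which encodes beta-catenin, was 316 ± 11.8 CPM in heart WT and 255 ± 29.8 CPM in heart KO (log2 fold change -0.31, SE 0.10, adjusted p = 0.0368), a call lost under 10 of 16 alternatives. In ECs *Ctnnb1* had 474, 489 and 523 CPM in EC WT and 643, 636 and 599 CPM in EC KO (0.34, SE 0.14, adjusted p = 0.128).

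*Sfrp4*, which encodes a further secreted Frizzled-related protein, had 64.4, 47.8 and 92.3 CPM in EC WT and 240.0, 282 and 299.6 CPM in EC KO (log2 fold change 2.01, SE 0.24, adjusted p = 0.00384, and 1.82, adjusted p = 0.148, without EC KO 2 and EC KO 3). In heart it was 0.646 ± 0.0952 CPM in WT and 0.240 ± 0.153 CPM in KO (-1.38, SE 0.49, adjusted p = 0.0478). That call was lost under 10 of 16 alternatives, among them the fit with no filter. *Sfrp4* was scarce in heart KO and could pass the count filter through heart WT alone. A gene kept that way could only be called as lower, so the direction of this fall carries no information. *Lgr6*, a receptor for R-spondins, which amplify WNT signals, had 76.7, 70.4, 71.6 and 79.9 CPM in heart WT and 28.8, 33.2 and 32.3 CPM in heart KO (-1.25, SE 0.10, adjusted p = 1.06e-05). It was also lower in ECs (-1.64, SE 0.47, adjusted p = 0.0493), where the call was lost under 11 of 16 alternatives and the log2 fold change was -0.92 without EC WT 1 and -1.79 (adjusted p = 0.375) without EC KO 2 and EC KO 3. Of the WNT ligands in heart, *Wnt2* rose from 0.291 ± 0.117 to 1.22 ± 0.383 CPM (2.21, SE 0.40, adjusted p = 0.00268) and *Wnt9b* from 0.229 ± 0.225 to 1.03 ± 0.332 CPM (1.87, SE 0.56, adjusted p = 0.0231), a call lost under 4 of 16 alternatives, among them the fits without heart WT 3 (1.51), heart KO 2 (1.77) or heart KO 3 (1.71). *Wnt5b* fell from 3.44 ± 0.322 to 1.56 ± 0.0562 CPM (-1.12, SE 0.19, adjusted p = 0.00186). The secreted Dickkopf protein gene *Dkk2* rose from 0.119 ± 0.114 to 0.488 ± 0.138 CPM (1.75, adjusted p = 0.0359, lost under 8 of 16 alternatives), and *Ccn4*, a WNT-induced matricellular gene, fell from 3.56 ± 0.781 to 1.50 ± 0.413 CPM (-1.27, adjusted p = 0.00385). *Wnt2* (0.177 to 0.446 CPM in heart WT), *Wnt9b* and *Dkk2* were scarce in heart WT and could pass the count filter through heart KO alone. A gene kept that way could only be called as higher, so the direction of these rises carries no information. The other pathway DEGs of ECs are named after their values were seen. They were the receptor *Fzd3* (1.05, adjusted p = 0.0250) and the target genes *Cd44* (1.24, adjusted p = 0.0164) and *Cldn1* (1.75, adjusted p = 0.0421), which rose, with the calls of *Fzd3* and *Cldn1* lost under 7 of 16 alternatives each, and the target *Myc* (-1.09, adjusted p = 0.0177), which fell. The call of *Cd44* was lost under 3 of 16 alternatives (without EC WT 1, without EC KO 3 and without both EC KO 2 and EC KO 3), and that of *Myc* under 3 of 16 (without EC KO 1, without EC KO 2 and without both EC KO 2 and EC KO 3). Without EC KO 2 and EC KO 3 the log2 fold changes were 1.27 for *Cd44*, -1.24 for *Myc*, 0.75 for *Fzd3* and 2.22 for *Cldn1*, and none passed (adjusted p = 0.139, 0.161, 0.394 and 0.224).

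Marker genes are named by their adjusted p among the DEGs, not by the size of the difference. In EC KO the cardiomyocyte genes *Myh6* (-7.53), *Tnnt2* (-6.39), *Myl2* (-8.85), *Actc1* (-4.49) and *Tnni3* (-4.05), the mesothelial genes *Upk3b* (-5.78), *Lrrn4* (-3.66) and *Msln* (-4.63), the adipocyte hormone gene *Lep* (-3.77) and the chondrocyte gene *Chad* (-2.06) fell and the endothelial gene *Tie1* (1.01) rose. In EC KO *Myh6* had 0.0354 to 0.421 CPM, *Tnnt2* 0.294 to 0.638 CPM and *Myl2* 0.0354 to 0.268 CPM. These genes could pass the count filter through EC WT alone and could then only be called as lower, so the direction of their falls carries no information. Of the 8 endothelial markers 3 passed as higher and 1, *Kdr* (-0.58), as lower. Of the 4 chondrocyte markers tested 1, *Sox9* (1.46), passed as higher and 1 as lower, and of the 5 adipocyte markers only *Lep* passed. In heart, the DEGs among the markers were *Upk3b* (1.31), *Tagln* (1.17) and *Lyz2* (1.16), which rose, and *Nppa* (-1.15), which fell. Of the 8 cardiomyocyte markers 2 passed as higher and 1 as lower there, of the 6 smooth muscle markers 2 and 1, of the 6 macrophage markers 3 and 0 and of the 4 mesothelial markers 3 and 0. *Kdr* and *Sox9* are named after their values were seen.

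The genes whose level went most closely with *Axin2* over the 13 libraries, after the group means were subtracted from log2 CPM, were *Rbm19* (Pearson r = 0.93), *Trappc10* (0.92) and *Dnajc11* (0.90). For *Sfrp1* they were *Arhgef5* (0.94), the endothelial cadherin gene *Cdh5* (0.93) and *Rigi* (0.89). Among the members the closest pair was *Lef1* and *Tcf7* (0.68), followed by *Sfrp1* and *Sfrp2* (0.66). These correlations share libraries and depth and are given as a description.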

How the data were processed

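Directional oligo-dT libraries were sequenced from aortic ECs and frozen whole heart. The authors pseudoaligned the reads with Kallisto (0.44.0, default parameters, which do not use strand), and the deposited files give estimated counts and TPM per transcript, not normalized between libraries. As index the methods give GENCODE M32 (GRCm39), and the labels list mm10 and GRCh38.p13. Transcripts were matched by identifier to GENCODE M39 (115140 of 118489). Unmatched transcripts (0.755% to 1.01% of counts) were left out. Per gene, the estimated counts of its transcripts were added, rounded and tested within each tissue with edgeR 4.0.16 (R 4.3.3, filterByExpr with minimum count 10, TMM, quasi-likelihood F-test), and the interaction over all 13 libraries. At most 2.684% of a member's 31-base words were shared with another gene. Antisense genes overlap *Axin2*, *Lef1*, *Tcf7*, *Sfrp2* and *Frzb*, and none of these is listed, so their reads cannot be told apart. The series is described as paired ECs and hearts, but the labels tie no library to a mouse, so all 13 were taken as independent, in the interaction too, and p-values measure the spread between libraries.

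Tested on simulated data in which 200 genes differed by 2 on the log2 scale, the fits called 152 of them in ECs, 190 in heart and 139 for the interaction, with 19, 11 and 8 unchanged genes. The members, marker lists and pathway list were chosen with earlier results of these data known. The text names all members, the 12 most significant DEGs per tissue among pathway and marker genes, *Ctnnb1*, *Hmox2* and the 3 genes most like *Axin2* and *Sfrp1*. Alternatives were DESeq2 1.42.0, upper-quartile and RLE normalization, no filter, length-scaled TPM, a length and GC offset, the replicate block, protein-coding transcripts, all libraries in 1 fit, leaving out each library and, added after seeing the data, leaving out EC KO 2 and EC KO 3. Figures were drawn with matplotlib 3.10.9.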

Additional observations from a re-analysis of the deposited data

Results flagged for a closer look

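In the 4 heart WT libraries, 1 library stood far from the other 3 for 3 members. *Lef1* was 0.0354 CPM in heart WT 4, from 1 estimated count, *Nkd1* was 2.38 CPM in heart WT 1, from 16 estimated counts, and *Sfrp1* was 10.7 CPM in heart WT 2. Chance gives such a gap in about 1 in 20 groups, and 10 members were looked at in this group.

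The genotype difference itself differed between the tissues for 3 members. The log2 fold change in heart minus that in ECs was 1.78 for *Axin2* (adjusted p = 0.00305), 1.58 for *Nkd1* (adjusted p = 0.0183) and 2.41 for *Wif1* (adjusted p = 0.00815), by edgeR's quasi-likelihood test. Of all 15938 genes tested, 28.8% passed it. In each of the 3 the EC KO libraries were below all EC WT libraries and the heart groups overlapped.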

How the results depend on the processing

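In ECs 3 members passed, compared to 5 with DESeq2, 5 with the replicate block, 2 to 4 when 1 library was left out and 0 without EC KO 2 and EC KO 3, where 1 KO library is left and is assumed to vary like the WT libraries. The 5 with DESeq2 were the 3 plus *Nkd1* and *Dkk3*. In heart 2 members passed, compared to 1 with DESeq2, 1 with the replicate block, 0 with length-scaled TPM and 1 to 2 when 1 library was left out. For the interaction 3 passed, compared to 3 to 4 when 1 library was left out and 1 without EC KO 2 and EC KO 3. The difference between the class medians in ECs (-1.66) ranged from -1.92 to -0.52 when 1 library was left out, the last without EC WT 2. In heart (-0.35) it ranged from -0.60 to -0.20. Whether the replicate numbers pair the samples could not be told from correlations this weak. Deviations of same-numbered WT and KO libraries correlated by 0.169, 0.036 and 0.092 in ECs and by -0.023, 0.074 and 0.038 in heart, and EC WT 2, heart WT 1 and heart WT 3 correlated best with another number. Reversed directions were found only for values that had not passed. In ECs *Lef1* was -0.92 to 0.18 when 1 library was left out, 0.18 without EC WT 2, and *Frzb* was -0.19 without EC KO 2 and EC KO 3. In heart *Nkd2* was -0.35 to 0.17 when 1 library was left out (0.17 without heart WT 1, 0.13 without heart KO 2), *Frzb* -0.031 to 0.34 (the first without heart KO 3) and *Wif1* -0.30 to 0.18 (the last without heart KO 1), and *Wif1* was 0.077 with protein-coding transcripts. For the interaction *Tcf7* was -0.67 (without EC WT 2) to 1.32 when 1 library was left out, *Sfrp2* was -0.74 with length-scaled TPM, and *Frzb* was 0.17 with length-scaled TPM, -0.52 to 0.013 (without EC WT 2) when 1 library was left out and 0.41 without EC KO 2 and EC KO 3. The cause of these changes was not tested. Of the alternatives for single genes, 659 kept direction and call, 82 lost the call, 11 gained it and 12 reversed. The 3 or 4 libraries per group limit all values, and so do low counts in heart, of at most 8 per library for *Lef1*, 20 for *Tcf7*, 35 for *Nkd2* and, in heart WT, 11 for *Sfrp2*.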
